A study of Mus musculus with 9 samples.

Results

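The genes described here are 9 transcription factors of the proneural network of the olfactory placode, Neurog1, Neurog2, Neurod1, Neurod4, Insm1, Isl1, Ebf1, Ebf2 and Ebf3. They were chosen by gene name, and each name matched 1 row among the 54532 genes of the deposited table. The tissue was the lambdoidal junction of C57BL/6J mouse embryos, the site at which the facial prominences around the nasal pit meet to form the upper lip and primary palate. The 3 stages are E10.5, E11.5 and E12.5, and there was no treatment or genetic change named in the labels. Each stage has 3 libraries, each from RNA of pooled embryos, so the spread between libraries is a spread between pools. Total counts were 16581009–20836804 per library.

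The olfactory placode is a thickening of the head ectoderm that folds in to form the nasal pit, and its cells give rise to the sensory neurons of the nose and to the migrating GnRH neurons. Neurogenins are basic helix-loop-helix (bHLH) factors that commit a progenitor to the neuronal fate and switch on Notch ligands and NeuroD factors. NeuroD factors, the zinc finger repressor Insm1 and the EBF factors act in the cells that leave the cycle and differentiate. Bulk tissue of this kind also holds facial mesenchyme, surface epithelium, nerve and, where the dissection touches it, forebrain, and several of the 9 genes are known to be active in some of these as well. A lower or higher value can come from fewer or more cells of a type or from less or more RNA per cell, and these cannot be told apart in bulk RNA.

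Levels are given as CPM, counts scaled to the size of the library, with TMM-adjusted totals. Changes are log2 fold changes of the later over the earlier stage with their standard error (SE), and the adjusted p-values come from the quasi-likelihood test of edgeR and were adjusted over all genes tested by the Benjamini-Hochberg method. A differentially expressed gene (DEG) passed 2 thresholds, an adjusted p of at most 0.05 and a log2 fold change of 1 or more in either direction. A gene below that fold is said to rise or fall where its adjusted p was at most 0.05, and is then named as below the fold threshold.

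The DEGs among the 9 factors were Ebf3 and Ebf1, which rose, Isl1, which fell, and Neurod4, which was not detected at E12.5. In E11.5 vs. E10.5, 0 of the 8 factors tested were upregulated DEGs and 0 were downregulated, where 3.46% and 2.61% of the 15708 genes tested were called in these directions by edgeR. At an unadjusted p below 0.05 by edgeR the count was 3 of 8, where 27.9% of all genes tested were below it. In E12.5 vs. E11.5, 1 was upregulated (Ebf3) and 1 downregulated (Neurod4), against 4.14% and 0.962% of 15808 genes. In E12.5 vs. E10.5, 2 were upregulated (Ebf1 and Ebf3) and 1 downregulated (Isl1), against 9.97% and 5.08% of 15899 genes. Neurog2 was too low to be tested in the first 2 comparisons and Neurod4 in the third. The median log2 fold change of the factors tested was 0.24, 0.09 and 0.49 in the 3 comparisons, and that of all genes tested was -0.032, 0.019 and -0.0063.

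Libraries of the 2 stages did not overlap for 3 of 8, 5 of 8 and 5 of 8 factors in the same order, where 36.7%, 35.3% and 42.4% of all genes tested did not overlap. When all 3 stages were fitted together, 6 of the 9 factors differed among the stages at an adjusted p of at most 0.05 by edgeR, against 28.3% of 16375 genes. These were Neurog2 (adjusted p = 0.0435), Neurod4 (0.00959), Insm1 (0.00675), Isl1 (0.000341), Ebf1 (0.00111) and Ebf3 (0.000612) in edgeR's test. Neurod4, at 0 counts in the E12.5 libraries, entered this fit only through the E10.5 and E11.5 libraries. Neurog2 was near the limit of detection. The count that includes them is a description and does not show that the factors differ more often than other genes. Neurog1 (adjusted p = 0.37), Neurod1 (0.0691) and Ebf2 (0.755) did not pass edgeR's test of any difference among stages. The count was 5 without E10.5 replicate 1, without any 1 of the E11.5 libraries, or without E12.5 replicate 2 or 3. It was 6 without any 1 of the other libraries. The share of all genes called is not given for the fits with a library left out, so these counts have no background beside them.

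**Figure D1:**
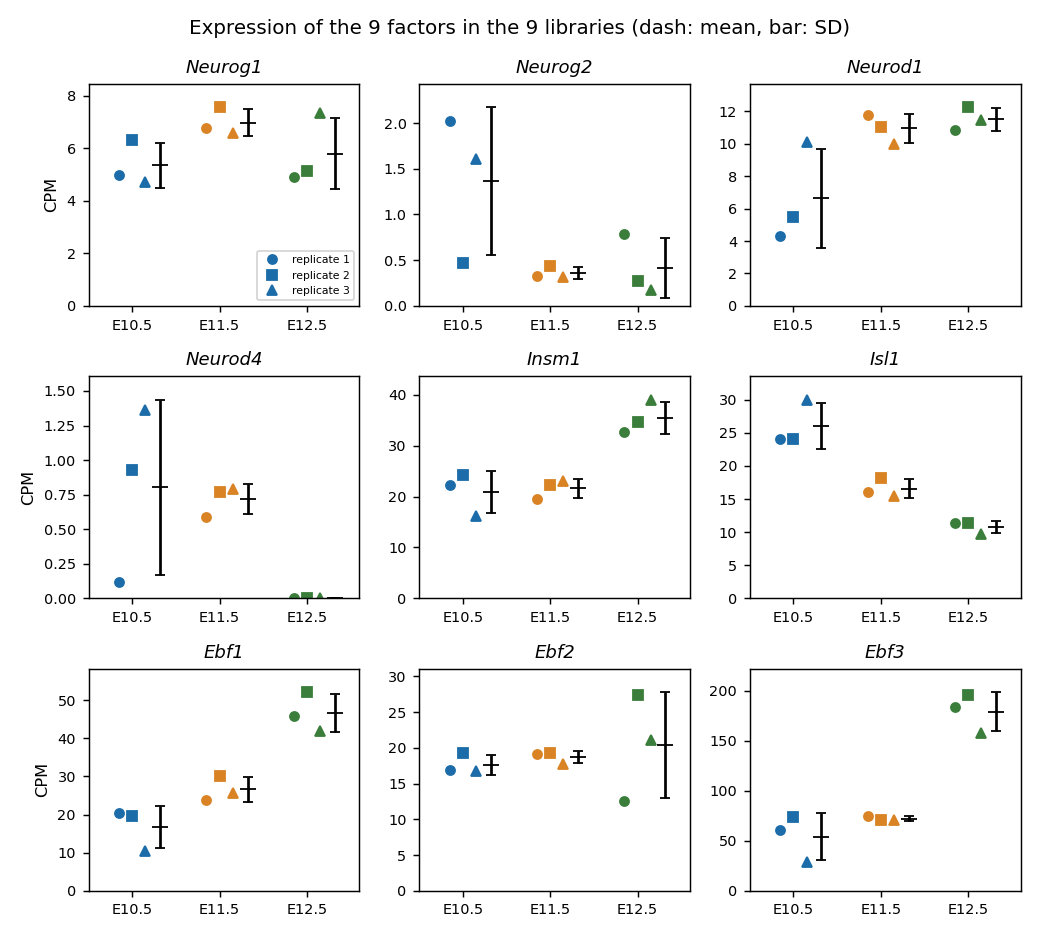
CPM of the 9 factors in each library (y axis, from 0) by stage (x axis), with the mean and SD of the 3 libraries beside the points. Ebf1 and Ebf3 are highest in the 3 E12.5 libraries, Isl1 is highest in the 3 E10.5 libraries, and Neurod4 is at 0 in the 3 E12.5 libraries.

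1 library stood apart. E10.5 replicate 3 differed from the other E10.5 libraries by a standard deviation of 0.703–0.711 in log2 CPM over genes, where the other pairs of libraries within a stage differed by 0.373–0.591. Its deviation followed GC content (Spearman correlation across genes -0.546, where genes are not independent replicates). The summed CPM of 11 facial mesenchyme markers was 1360 in it and 2560 and 2610 in the other E10.5 libraries, and that of 9 epithelium markers was 899 against 502 and 573. For Neurod1, Ebf1 and Ebf3, changes against E10.5 are given with and without this library. The calls of the marker lists are given with it only.

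To show the sequence in front of genes that moved in different directions, the 250 bases before the RefSeq start (GRCm38.p6, each read on the strand of the gene) are printed for Ebf3, which rose, Isl1, which fell, and Neurod4, which was lost from detection. RefSeq windows were found for 7 of the 9 factors. Capitals mark the core E-box CANNTG, the site type that bHLH factors such as neurogenins and NeuroD factors bind, which reads the same on both strands.
Ebf3 (chr7:137314446-137314695, minus strand): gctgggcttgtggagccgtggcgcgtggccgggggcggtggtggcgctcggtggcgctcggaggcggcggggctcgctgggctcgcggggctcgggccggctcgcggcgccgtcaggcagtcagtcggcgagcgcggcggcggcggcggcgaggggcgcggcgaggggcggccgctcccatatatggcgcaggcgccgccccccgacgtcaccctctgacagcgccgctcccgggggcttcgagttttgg
Isl1 (chr13:116309689-116309938, minus strand): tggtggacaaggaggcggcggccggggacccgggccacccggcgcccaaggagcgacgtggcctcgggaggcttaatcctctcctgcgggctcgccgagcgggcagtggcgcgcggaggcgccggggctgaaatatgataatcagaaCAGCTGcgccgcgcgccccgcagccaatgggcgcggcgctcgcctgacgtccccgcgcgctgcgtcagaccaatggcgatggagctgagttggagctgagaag
Neurod4 (chr10:130280255-130280504, minus strand): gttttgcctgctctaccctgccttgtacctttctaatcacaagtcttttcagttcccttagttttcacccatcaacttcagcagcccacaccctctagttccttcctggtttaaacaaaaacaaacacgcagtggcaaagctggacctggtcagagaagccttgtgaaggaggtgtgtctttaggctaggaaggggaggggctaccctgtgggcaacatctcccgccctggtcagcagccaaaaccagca

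The Isl1 window holds 1 E-box, CAGCTG, which begins 103 bases before the start, and the Ebf3 and Neurod4 windows hold 0. Of the 32851 RefSeq windows of this length, 66.2% hold at least 1 CANNTG. The core of the EBF recognition site, CCCNNGGG, which also reads the same on both strands, occurs once in the Ebf3 window, as CCCGGGGG beginning 21 bases before the start. It occurs in 11.8% of all windows, and in 0 copies in the Isl1 and Neurod4 windows printed. The Ebf3 window is 80% G and C, that of Isl1 71.2% and that of Neurod4 51.2%. A match in such a window is a description of its letters and not of binding.

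Neurog1 (ENSMUSG00000048904, chr13:56250478-56252163, minus strand) is the neurogenin that specifies sensory neurons of several cranial placodes. Its level was 4.99, 6.33 and 4.71 CPM in E10.5 replicates 1–3, 6.78, 7.55 and 6.58 CPM at E11.5, and 4.90, 5.12 and 7.34 CPM at E12.5. The E11.5 libraries lay above all E10.5 libraries by a small margin, and those of E12.5 overlapped with both other stages. The log2 fold change was 0.39 (SE 0.19, adjusted p = 0.228 by edgeR) in E11.5 vs. E10.5 and -0.28 (SE 0.20, adjusted p = 0.388) in E12.5 vs. E11.5. It was 0.12 (SE 0.27, adjusted p = 0.782 by edgeR) in E12.5 vs. E10.5. No difference in Neurog1 between any 2 stages passed the test.

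Neurog2 (ENSMUSG00000027967, chr3:127633135-127635631, plus strand), the neurogenin of other cranial ganglia and of much of the central nervous system, was near the limit of detection. It had 34, 8 and 26 counts at E10.5, 6, 9 and 6 counts at E11.5, and 14, 5 and 3 counts at E12.5. E10.5 replicates 1 and 3 stood above all later libraries, and E10.5 replicate 2 lay within the range of E12.5. Between E10.5 and E12.5 the log2 fold change was -1.69 (SE 0.66, adjusted p = 0.0843 by edgeR). Without E10.5 replicate 2 it was -2.11 (adjusted p = 0.0281 by edgeR), and the adjusted p ranged from 0.0185 to 0.247 over 13 other fits. When every gene with at least 1 count was kept, Neurog2 could be tested in E11.5 vs. E10.5 and had a log2 fold change of -1.89 (SE 0.55, adjusted p = 0.0304 by edgeR). Neurog1 made up 76.5–94.7% of the summed CPM per kb of the 2 neurogenins in the E10.5 libraries, then 95.8–96.5% in those of E11.5 and 89.1–98.2% in those of E12.5.

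Neurog2 was highest in the stage in which forebrain and eye markers were highest. The summed CPM of 10 such genes was 158–236 in the E10.5 libraries, then 35.2–38.5 in those of E11.5 and 32.3–45.1 in those of E12.5, with Otp at 0 in the E11.5 libraries. In E12.5 vs. E10.5, 0 of the 9 tested were upregulated and 7 downregulated. Six6, a factor of the developing eye and hypothalamus, fell by 3.84 on the log2 scale, and Vax1, a factor of the ventral forebrain, fell by 4.20. Nkx2-1, which defines the ventral forebrain, was at 31.4, 43.8 and 57.9 CPM at E10.5 and at most 2.36 CPM in any later library, and Sox1, an early neural factor, fell by 5.96. The part of these cells in the values of Neurog2 and of the other factors that were higher at E10.5 was not tested.

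Neurod1 (ENSMUSG00000034701, chr2:79452521-79456751, minus strand) is a target of neurogenins that drives neuronal differentiation. It was measured at 4.34, 5.46 and 10.1 CPM at E10.5, 11.8, 11.1 and 10.01 CPM at E11.5, and 10.8, 12.2 and 11.5 CPM at E12.5. E10.5 replicates 1 and 2 lay below every later library, while E10.5 replicate 3 was at 2.06 times their mean and within the range of E11.5. With all libraries the log2 fold change was 0.73 (SE 0.30, adjusted p = 0.16 by edgeR) in E11.5 vs. E10.5 and 0.80 (SE 0.31, adjusted p = 0.0805) in E12.5 vs. E10.5. Without E10.5 replicate 3 these became 1.16 (adjusted p = 0.000217 by edgeR) and 1.24 (adjusted p = 0.00245), and Neurod1 was an upregulated DEG in both. With the GC trend of each library removed and all libraries kept, they were 0.76 (adjusted p = 0.0413 by edgeR) and 0.88 (adjusted p = 0.0202). Between E11.5 and E12.5 the log2 fold change was 0.07 (SE 0.15, adjusted p = 0.798 by edgeR). Neurod1 shares 7.37% of its exon bases with Cerkl on the same strand and 5.64% with Gm26755 on the opposite strand, so its counts may hold reads of these genes.

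Neurod4 (ENSMUSG00000048015, chr10:130268152-130280240, minus strand), which acts with Neurod1 and the neurogenins in placode-derived neurons, was also near the limit of detection. It had 2, 16 and 22 counts at E10.5, 11, 16 and 15 counts at E11.5, and 0 in each of the 3 E12.5 libraries. The E10.5 libraries spanned the values of E11.5, and no E12.5 library reached either. Against a detection limit of 3 counts per library, or 0.17 CPM, the mean level at E12.5 was at least 4.22-fold lower than at E11.5 and at least 4.73-fold lower than at E10.5. These bounds cover counting error only. E10.5 replicate 1, with 2 counts, was itself below this limit, so the bound against E10.5 rests on replicates 2 and 3. E10.5 replicate 3, the library that stood apart, was at 2.6 times the mean of replicates 1 and 2. In E12.5 vs. E11.5 it was a downregulated DEG (adjusted p = 0.00346 by edgeR). All 13 other fits that tested it also called it, with an adjusted p of at most 0.0238. Neurod4 entered this comparison only through its E11.5 counts, so a call could hardly be in the other direction. The other fits reuse these libraries and are not separate support. It could not enter the fit with at least 10 counts in every library. In E11.5 vs. E10.5 the log2 fold change was -0.15 (SE 0.65, adjusted p = 0.905 by edgeR). With 1 library left out, it ranged from -0.66 without E10.5 replicate 1 to 0.45 without E10.5 replicate 3.

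The change of Neurod4 from E11.5 to E12.5 was not shown to differ from that from E10.5 to E11.5 in edgeR's test (adjusted p = 0.146). By edgeR, 0 of the 9 factors passed that test, and 1.18% of all genes passed. At an unadjusted p below 0.05 there were 2 factors, Neurod4 and Insm1, and 12% of all genes. Among the alternative fits, DESeq2 called 1 factor, Neurod4 (adjusted p = 0.0321), and edgeR without E10.5 replicate 3 called Ebf3 (adjusted p = 0.0176). The Neurod4 value rests on E12.5 libraries at 0 counts, and the shares of all genes called in these fits are not given. These calls are therefore not support for a difference that the main test did not show.

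Insm1 (ENSMUSG00000068154, chr2:146221921-146225020, plus strand), a repressor that promotes the exit of neuronal progenitors from the apical layer, rose in E12.5 vs. E11.5, below the fold threshold. Its level was 22.3, 24.2 and 16.2 CPM at E10.5, 19.6, 22.3 and 23.1 CPM at E11.5, and 32.7, 34.7 and 39.0 CPM at E12.5. All E12.5 libraries lay above all earlier ones, and those of E10.5 and E11.5 overlapped. The log2 fold change was 0.06 (SE 0.17, adjusted p = 0.868 by edgeR) in the first interval and 0.70 (SE 0.14, adjusted p = 0.00783) in the second. Over both intervals it was 0.77 (SE 0.20, adjusted p = 0.0181 by edgeR). The second minus the first change was 0.66 (SE 0.30, adjusted p = 0.413 by edgeR), so a difference between the intervals was not shown. With the GC trend of each library removed, the change in the second interval was 0.48 (adjusted p = 0.0492 by edgeR). The adjusted p passed 0.05 without E11.5 replicate 1 in the second interval (0.0526 by edgeR), and without E12.5 replicate 1 (0.0527) or 3 (0.0679) over both intervals.

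Isl1 (ENSMUSG00000042258, chr13:116298281-116309689, minus strand) is a LIM homeodomain factor of sensory and motor neurons that is also known from other craniofacial tissues. It fell across the stages, from 24.0, 24.2 and 30.0 CPM at E10.5 to 16.0, 18.2 and 15.5 CPM at E11.5 and then 11.3, 11.4 and 9.72 CPM at E12.5. No library of a stage overlapped with one of another. Isl1 was a downregulated DEG in E12.5 vs. E10.5, with a log2 fold change of -1.26 (SE 0.20, adjusted p = 0.00112 by edgeR), and remained one in all 14 other fits, with log2 fold changes of -1.33 to -1.14. The mean at E10.5 was 2.41 times that at E12.5.

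Both intervals contributed a similar value to the fall of Isl1. The log2 fold change was -0.65 (SE 0.15, adjusted p = 0.0265 by edgeR) in the first and -0.62 (SE 0.15, adjusted p = 0.0214) in the second, each below the fold threshold. The second minus the first change was 0.04 (SE 0.28, adjusted p = 0.973 by edgeR). The adjusted p of the single intervals was above 0.05 in some other fits. For the first interval it was 0.072 by edgeR with the replicate number as a block. With 5 libraries, it was 0.056 without E10.5 replicate 2 and 0.127, 0.0682 and 0.144 without E11.5 replicates 1–3 by edgeR in the first interval. In the second it was 0.0616, 0.108 and 0.0601 without E11.5 replicates 1–3 and 0.067 without E12.5 replicate 1 by edgeR.

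Of the forebrain and eye markers, 7 of 10 were downregulated over the first interval. Over the second, 3 could be tested and 0 of these were called by edgeR in either direction. Their log2 fold changes were -1.17 (Vax1), -0.51 (Six6) and 0.10 (Six3), and the other markers were too low to be tested there. Markers of cranial sensory ganglion neurons, in which Isl1 is known to be active, were low, at a summed 4.75–5.57 CPM over 7 genes at E10.5 and 7.33–8.59 CPM at E12.5. Of the 3 tested in E12.5 vs. E10.5, Prph, a neuronal intermediate filament, was upregulated (3.57, SE 0.52) and Pou4f1, a factor of sensory neurons, was downregulated (-1.79, SE 0.45). The part of these cell types in the fall of Isl1 was not tested.

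The EBF factors are zinc-binding helix-loop-helix proteins that act downstream of proneural factors in olfactory neurons, and they are also known from mesenchymal cells and, for Ebf1, B lymphocytes. Ebf3 and Ebf1 were the upregulated DEGs among the 9 factors, and Ebf2 stayed within the spread of its libraries. Ebf3 and, below the fold threshold, Ebf1 rose in the second interval, and neither passed the test in the first. The second minus the first change was 0.90 (SE 0.45, adjusted p = 0.468 by edgeR) for Ebf3 and 0.14 (SE 0.38, adjusted p = 0.917) for Ebf1, so a difference between the intervals was not shown for either.

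Ebf3 (ENSMUSG00000010476, chr7:137193673-137314445, minus strand) was measured at 60.5, 73.4 and 28.4 CPM at E10.5, 74.7, 70.7 and 70.9 CPM at E11.5, and 184, 195 and 157 CPM at E12.5. The E10.5 and E11.5 libraries overlapped, E10.5 replicate 3 was at 0.424 times the mean of the other 2, and every E12.5 library lay above every earlier one. The mean at E12.5 was 2.48 times that at E11.5, with a log2 fold change of 1.30 (SE 0.12, adjusted p = 0.000158 by edgeR). Over both intervals it was 1.73 (SE 0.30, adjusted p = 0.00181 by edgeR), and 1.43 (adjusted p = 0.000273) without E10.5 replicate 3. Ebf3 was called in all 14 other fits of both comparisons. In E11.5 vs. E10.5 the log2 fold change was 0.42 (SE 0.29, adjusted p = 0.39 by edgeR) with that library and 0.11 (adjusted p = 0.328) without it. The antisense gene Gm45278 covers 3.85% of the exon bases of Ebf3.

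Ebf1 (ENSMUSG00000057098, chr11:44617317-45008091, plus strand) had 20.4, 19.6 and 10.5 CPM at E10.5, 23.9, 30.2 and 25.7 CPM at E11.5, and 46.0, 52.0 and 41.9 CPM at E12.5. The 3 stages did not overlap, and E10.5 replicate 3 was at 0.524 times the mean of the other 2. Over both intervals Ebf1 was an upregulated DEG (log2 fold change 1.48, SE 0.25, adjusted p = 0.00177 by edgeR), with 1.24 (adjusted p = 0.000609) without E10.5 replicate 3, and it was called in all 14 other fits. The log2 fold change was 0.67 (SE 0.24, adjusted p = 0.12 by edgeR) in the first interval and 0.80 (SE 0.14, adjusted p = 0.005) in the second, where the rise was below the fold threshold. Without E10.5 replicate 3 the first was 0.42 (adjusted p = 0.0124 by edgeR), also below the fold threshold.

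Ebf2 (ENSMUSG00000022053, chr14:67233292-67430918, plus strand) had 16.9, 19.2 and 16.7 CPM at E10.5, 19.1, 19.3 and 17.7 CPM at E11.5, and 12.6, 27.4 and 21.0 CPM at E12.5. The E12.5 libraries spread around the values of both earlier stages. The log2 fold changes in the 3 comparisons were 0.09 (SE 0.13), 0.12 (SE 0.23) and 0.22 (SE 0.26), with adjusted p-values of 0.691, 0.766 and 0.592 by edgeR. The antisense gene Gm10860 covers 6.12% of its exon bases. Ebf4, the fourth gene of the family, had 9.28 ± 2.03 (SD, n = 3), 9.70 ± 2.27 and 16.9 ± 3.25 CPM at the 3 stages. Its log2 fold change in E12.5 vs. E10.5 was 0.87 (SE 0.24, adjusted p = 0.0234 by edgeR), a rise below the fold threshold. The paralog Isl2 had a log2 fold change of 0.16 (SE 0.32, adjusted p = 0.766 by edgeR) there, and Insm2 had at most 3 counts in any library.

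Set per kb of gene length, Ebf3 made up 59.2%, 62.5% and 46.9% of the sum of Ebf1, Ebf2 and Ebf3 in the E10.5 libraries, 60.8%, 56.6% and 59.7% at E11.5, and 75.3%, 69.5% and 69.9% at E12.5. The E12.5 shares of Ebf3 lay above all earlier ones. An exact permutation test of 3 against 3 libraries cannot give a p below 0.1, so these shares are given as a description. The share of Ebf2 was 36.8% in E10.5 replicate 3, 19.8–22% in the other E10.5 and E11.5 libraries, and 6.90–13.0% at E12.5. The share of Ebf1 was 15.7–18.9% in the E10.5 libraries, 18.4–22.9% in those of E11.5 and 17.5–17.8% in those of E12.5, which lay below the shares at E11.5.

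**Figure D2:**
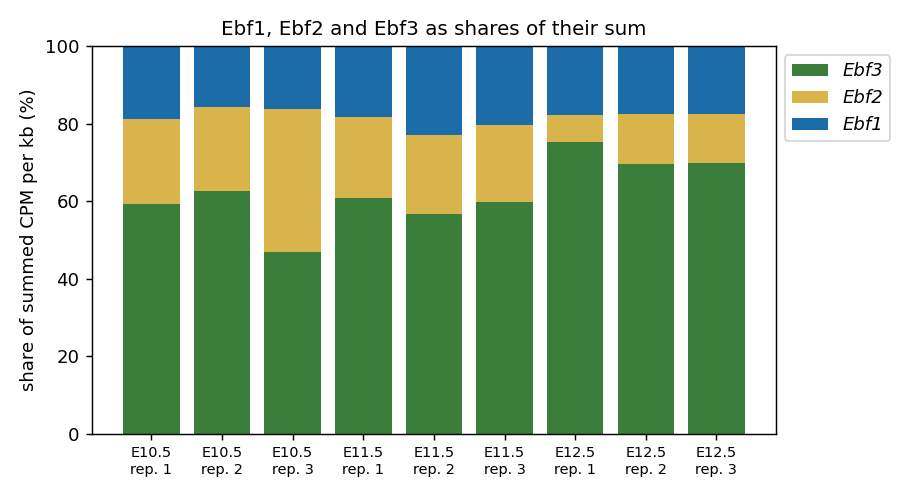
Shares of Ebf1, Ebf2 and Ebf3 in their summed CPM per kb (y axis, percent) in each library (x axis). Ebf3 holds 69.5–75.3% in the E12.5 libraries and 46.9–62.5% in the others.

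Facial mesenchyme markers were also higher at the later stages. The summed CPM of these 11 genes was 1360–2610 in the E10.5 libraries, then 3840–4180 in those of E11.5 and 4070–4700 in those of E12.5. Of these, 5 were upregulated and 1 was downregulated in E12.5 vs. E10.5, with a median log2 fold change of 0.82. Twist2, a bHLH factor of mesenchyme (2.49, SE 0.25), Pdgfra, a growth factor receptor of mesenchyme (1.54, SE 0.24), Alx1 (1.07, SE 0.20) and Col1a2 (1.92, SE 0.37) were among the upregulated DEGs. Between E11.5 and E12.5, 1 of 11 was upregulated (Twist2) and 0 were downregulated. The median there was 0.041, with values from -0.55 to 1.71. Of the 4 B lymphocyte markers, 0 were upregulated and 1 of 2 tested, Pax5, was downregulated in E12.5 vs. E10.5. Pax5 was at 0 in all E12.5 libraries. The part of the mesenchyme in the EBF values was not tested.

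Compared per kb, the order of the 9 factors changed. At E10.5 Insm1 (6.74 ± 1.34 CPM per kb), Isl1 (6.58 ± 0.86) and Ebf3 (5.86 ± 2.52) were highest, and their libraries overlapped (SD, n = 3). At E11.5 Ebf3 (7.82 ± 0.25 CPM per kb) lay above Insm1 (6.99 ± 0.60) without overlap, and Isl1 (4.18 ± 0.36), Neurog1 (4.13 ± 0.30) and Neurod1 (4.01 ± 0.33) followed and overlapped. At E12.5 Ebf3 (19.4 ± 2.1 CPM per kb) and Insm1 (11.4 ± 1.0) were separate from each other and from the rest. Ebf1 (4.78 ± 0.52 CPM per kb), Neurod1 (4.21 ± 0.26) and Neurog1 (3.43 ± 0.80) came next and overlapped with each other. Ebf2 (2.94 ± 1.07 CPM per kb) overlapped with Neurog1 above it and Isl1 (2.73 ± 0.24) below it, while Isl1 lay below Neurog1. Neurog2 and Neurod4 were lowest at every stage, at 0.61 ± 0.36 CPM per kb or less on average. Among the 16375 genes fitted over the 3 stages, Ebf3 moved from percentile 54.6 of the level per kb at E10.5 to 81.5 at E12.5, and Isl1 from 57.3 to 38.1.

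The other proneural and neuronal bHLH factors moved in both directions. Of the 9 listed, 4 could be tested in E12.5 vs. E10.5, where 2 were upregulated and 2 downregulated. Nhlh2 (1.07, SE 0.21) and Nhlh1 (1.04, SE 0.25), which act in differentiating neurons and in GnRH neurons, were the upregulated ones. Bhlhe22, a bHLH repressor, was among the downregulated ones (-1.45, SE 0.46). Atoh1, Neurod2 and Neurod6 were at 0 in all E10.5 libraries and had at most 4 counts in any library.

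Genes that mark the commitment step under the neurogenins fell in part. In E12.5 vs. E10.5, 0 of 13 were upregulated, 6 were downregulated and 7 were not called, with a median log2 fold change of -0.71. In E11.5 vs. E10.5, 5 were downregulated, and in E12.5 vs. E11.5, 0 of the 12 tested were called in either direction by edgeR. The Notch ligand Dll1, a known target of Neurog1 and Neurog2, had 14.8, 14.1 and 16.6 CPM at E10.5, 1.18, 3.08 and 2.90 CPM at E11.5, and 3.94, 2.70 and 5.25 CPM at E12.5. Dll1 fell by 1.93 on the log2 scale (SE 0.27), the Notch modulator Dll3 fell by 2.07 (SE 0.31), the zinc finger repressor Scrt2 fell by 3.56 (SE 0.55), and Myt1, a zinc finger factor of new neurons, fell by 1.68 (SE 0.28). Hes6, another neurogenin target, had a log2 fold change of 0.08 (SE 0.21, adjusted p = 0.813 by edgeR). Forebrain and eye markers were highest at the same stage as Dll1, and their part in this fall was not tested.

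Of 9 inhibitors of neurogenesis, 0 were upregulated and 1 was downregulated in E12.5 vs. E10.5, with a median of 0.38. This was the Notch target Hes5, at 4.99, 8.01 and 11.4 CPM at E10.5 and at most 1.54 CPM in any later library (-3.19, SE 0.50, adjusted p = 0.00102 by edgeR). It was also downregulated in E11.5 vs. E10.5.

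Genes of differentiating neurons moved in both directions over the first interval, and most were not called over the second. Of 15, 2 were upregulated (Ncam1 and Stmn2) and 2 downregulated (Celf3 and Stmn3) in E11.5 vs. E10.5. In E12.5 vs. E11.5, 3 were upregulated (Ncam1, Stmn2 and Stmn3), 0 were downregulated and 12 were not called. Stmn3 had a log2 fold change of -0.14 (SE 0.28, adjusted p = 0.761 by edgeR) in E12.5 vs. E10.5. Over both intervals 4 were upregulated and 0 downregulated, with a median log2 fold change of 0.38, and their summed CPM was 269–289 in the E10.5 libraries, then 328–365 in those of E11.5 and 538–585 in those of E12.5. Stmn2, a microtubule regulator of growing axons, had 13.7, 14.9 and 23.8 CPM at E10.5, 41.5, 31.0 and 40.0 CPM at E11.5, and 94.2, 91.7 and 132 CPM at E12.5. The log2 fold change of Stmn2 in E12.5 vs. E10.5 was 2.61 (SE 0.26), that of the adhesion molecule Ncam1 was 2.51 (SE 0.21), that of the growth cone protein Gap43 was 1.58 (SE 0.21) and that of the secretory granule protein Chga was 1.36 (SE 0.26). Celf3, an RNA-binding protein of neurons, fell by less than the fold threshold (-0.76, SE 0.25, adjusted p = 0.0467 by edgeR). It was 1 of the 11 not called, as were the neuronal tubulin Tubb3 (0.42, SE 0.16, adjusted p = 0.0748 by edgeR) and Dcx (0.08, SE 0.30, adjusted p = 0.882). Of 6 Schwann and glial precursor markers, 4 were upregulated and 1 was downregulated, with a summed 64.6–81.5 CPM at E10.5 and 89.1–122 CPM at E12.5. Sox10, which defines neural crest and glia, had a log2 fold change of 2.40 (SE 0.25) and Foxd3, a factor of neural crest, of 2.26 (SE 0.45).

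The placode itself was checked by its markers. All 10 olfactory epithelium progenitor genes were detected, at a summed 549–600 CPM in the E10.5 libraries and then 430–453 CPM and 435–508 CPM. In E12.5 vs. E10.5, Emx2 was upregulated (2.06, SE 0.22), 3 were downregulated, among them Pax6 (-2.21, SE 0.25) and Sox2 (-1.14, SE 0.18), and 6 were not called. Pax6 and Sox2 are active in forebrain as well as in olfactory epithelium. The olfactory receptor neuron list was low, at 21.6–34.8 CPM over 9 genes at E10.5 and 38.2–49.8 CPM at E12.5, and 0 of the 5 tested were called by edgeR in any comparison. Omp, which marks mature olfactory neurons, was at 0.507 CPM or less in every library. Gnrh1, the marker of GnRH neurons, had 0.178, 1.22 and 0.0619 CPM at E10.5 and 1.86, 1.29 and 1.97 CPM at E12.5 (log2 fold change 1.78, SE 0.70, adjusted p = 0.0891 by edgeR). Epithelium markers had 2 upregulated, Krt5 (6.16, SE 0.23) and Krt14 (3.30, SE 0.27), and 1 downregulated of 9, Krt18 (-1.02, SE 0.23). Of 6 erythroid markers, 1 was upregulated (Hba-a1) and 2 were downregulated, among them Hbb-bh1.

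**Figure D3:**
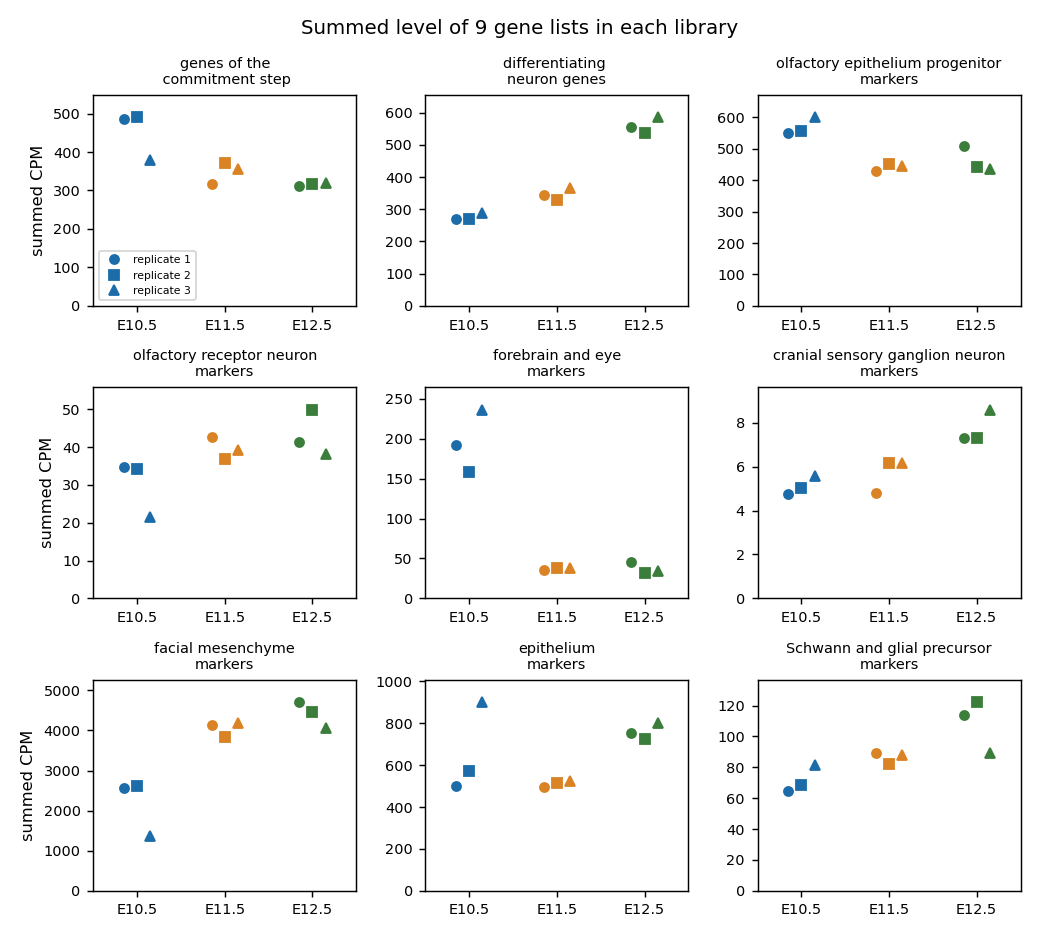
Summed CPM of 9 gene lists in each library (y axis, from 0) by stage (x axis), with 1 symbol per replicate. Differentiating neuron genes are highest in the E12.5 libraries, forebrain and eye markers are highest in the E10.5 libraries, and facial mesenchyme markers are lowest in E10.5 replicate 3.

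The genes with the profile most like that of each factor were taken by Pearson correlation of log2 CPM over the 9 libraries. Libraries of a stage share their age, so such a correlation mostly describes the order of the stages, and many genes reach a similar value. For Isl1 the closest were Gad2, an enzyme of GABA synthesis (r = 0.995), Sinhcaf (0.993) and Lin28b, an RNA-binding protein of early development (0.991). For Ebf3 they were Inf2 (r = 0.986) and Erg (0.984), and for Ebf1 Gaa (0.984), Larp6 (0.981) and the growth factor gene Tgfb3 (0.979). For Insm1 they were Ripor2 (r = 0.977), Tmem37 (0.975) and the Wnt receptor Fzd9 (0.972), and for Neurod1 Zmat1 (0.981), Stradb (0.976) and Gm43719 (0.976). The closest gene was Trim21 for Neurod4 (r = 0.959), Gm43328 for Neurog2 (0.952), Fbxl12os for Neurog1 (0.941) and Swap70 for Ebf2 (0.90).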

How the data were processed

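RNA-seq libraries of lambdoidal junction tissue were made from 3 pools of embryos at each of 3 stages. The authors mapped reads to mm10 with HISAT2 2.0.5 and obtained gene counts with featureCounts, and the strand setting is not given in the sources used here. The deposited count columns hold raw whole-number counts. Deposited FPKM values and the columns of fold changes and p-values from the authors' own comparisons were not used, and gene length served only for levels per kb.

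The 6 libraries of each comparison were fitted in edgeR 4.0.16 (R 4.3.3) with filterByExpr, TMM normalization and the quasi-likelihood test, and the 3 stages together on 9 libraries. SE is the absolute log2 fold change over the square root of F. CPM uses TMM-scaled totals, a prior count of 2 enters log2 CPM, and 3 counts per library is the detection limit. DESeq2 1.42.0 was an alternative, as were other scalings, filters, a replicate block and leaving out each library. The removal of a GC trend (lowess, span 0.3) was chosen after seeing the data. The fit was tested on simulated counts. Promoters are RefSeq sequences, and exon overlaps come from GENCODE on GRCm38.

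The 9 factors and the gene lists were chosen with earlier results of these data known. All 9 factors are named; of each list, up to 4 DEGs with the smallest p in E12.5 vs. E10.5 and defining genes at 0 are named, and Hes6, Tubb3, Dcx, Celf3, Stmn3, Omp and the paralogs Ebf4, Isl2 and Insm2 were named after their values were seen. For each factor the genes of highest correlation were taken from the first 3. Some genes that these rules choose are not reported here. Nothing in the labels says whether pools came from separate litters, so p-values measure the spread between these pools. Depth limits Neurog2 and Neurod4. Groups of 3 libraries cannot give an exact permutation p below 0.1.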

Additional observations from a re-analysis of the deposited data

How the results depend on the processing

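Of 516 alternative values of the factors, 487 kept their direction and their side of the DEG thresholds, 14 passed these only under the alternative, 0 lost them and 15 changed sign. The 516 include the main fit read with no fold threshold and at an adjusted p of at most 0.01. In those settings the sign cannot change, so the number kept is in part fixed in advance. Only a value called in the main fit could lose its call, and most values were not called there. A fit that did not test a called factor was not counted as a loss. With no fold threshold, 1 factor was downregulated in E11.5 vs. E10.5, and 3 were upregulated and 2 downregulated in E12.5 vs. E11.5. Shares of all genes called are not given for the settings of this section. These counts therefore describe the factors alone and cannot be set against a background. With every gene of at least 1 count, 3 were downregulated in E12.5 vs. E10.5 and 1 in E11.5 vs. E10.5, as Neurog2 in the first interval and Neurod4 over both were then tested and the adjusted p of Neurog2 over both was 0.0185 by edgeR, and 1 had successive changes that differed, as under DESeq2 (1). The fit on all 9 libraries also gave 3 downregulated in E12.5 vs. E10.5. With at least 10 counts in every library, 0 were downregulated in E12.5 vs. E11.5, since Neurod4 was not tested.

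With 1 library left out, the numbers of upregulated and of downregulated factors in E11.5 vs. E10.5 were each 0–1, the number downregulated in E12.5 vs. E10.5 was 1–2, and the number whose successive changes differed was 0–1. The upregulated factor was Neurod1, without E10.5 replicate 3. Signs changed only for values that did not pass the test, with these ranges of the log2 fold change: Neurod4 (-0.66 to 0.45) and Insm1 (-0.095 to 0.17) in E11.5 vs. E10.5, Neurod1 (-0.011 to 0.11) and Ebf2 (-0.16 to 0.37) in E12.5 vs. E11.5, and Neurog1 (-0.087 to 0.26) and Ebf2 (-0.054 to 0.47) in E12.5 vs. E10.5. The second minus the first change ranged from -0.12 to 0.19 for Isl1, from -0.020 to 0.35 for Ebf1 and from -0.23 to 0.29 for Ebf2. Except where named, the causes were not tested.

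Same-numbered libraries did not deviate together (correlations of -0.151 to 0.22, 2 of 9 above 0.1), so the numbers were taken as names. With the replicate block, 2 factors were downregulated in E12.5 vs. E10.5, Isl1 and Neurog2 (-1.69, adjusted p = 0.0443 by edgeR), the Neurod4 change in E11.5 vs. E10.5 was 0.029 and the second minus first change of Ebf2 was -0.020. The fall of Isl1 in E11.5 vs. E10.5, below the fold threshold, had an adjusted p of 0.072 by edgeR with the replicate block, and the rise of Neurod1 in E12.5 vs. E10.5 one of 0.0397. The other counts of called factors did not move with it.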
